A study of Homo sapiens with 28 samples.

Results

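The comparison described here set Kelly cells given a mimic of the human microRNA miR-1283 against Kelly cells given a scrambled control. It was chosen by its labels alone and holds 8 of the 28 libraries of the series, 4 per group, with 15058 of 30887 listed genes passing a filter on low counts. Kelly is an established human neuroblastoma line with an amplified MYCN gene, so both groups are 1 line. Both groups received 25 nM of synthetic RNA with a lipid reagent by reverse transfection, and polyadenylated RNA was sequenced 48 h later. The other 20 libraries come from cells given 1 of 5 other mimics, 4 each: miR-485-3p, miR-99b-5p, miR-1915-3p, miR-100-3p and miR-380-3p. Nothing in the labels ties the 4 libraries of a group to separate cultures. The p-values therefore measure only the spread between libraries of the same group, estimated over all 28 libraries, which may be technical.

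MicroRNAs guide Argonaute proteins to messenger RNAs, mostly through pairing of the seed, the bases near the 5′ end, with complementary sites in 3′ untranslated regions (3′ UTRs), and this pairing represses translation and shortens the life of the messenger RNA. A transfected mimic is a double-stranded RNA whose guide strand enters the same proteins. miR-1283 comes from the primate-specific microRNA cluster on chromosome 19, which is active mainly in placenta and embryonic cells.

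The RefSeq table of GRCh38.p14 lists the same mature miR-1283 of 22 bases from 2 precursors on the forward strand, MIR1283-1 (mature bases at chr19:53688494-53688515) and MIR1283-2 (chr19:53758245-53758266). Among the 2370 human mature names of that table no other has the same bases at positions 2 to 8. The first sequence is the mimic under study. miR-520d-5p and miR-524-5p, from the same cluster, are shown because their 5′ ends carry the CUACAA of the miR-1283 seed 1 base earlier. miR-99b-5p and miR-485-3p are the mimics whose own site-bearing genes are used as a yardstick further on. Capitals mark positions 2 to 8, the seed.
miR-1283: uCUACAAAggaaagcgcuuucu
miR-520d-5p: cUACAAAGggaagcccuuuc
miR-524-5p: cUACAAAGggaagcacuuucuc
miR-99b-5p: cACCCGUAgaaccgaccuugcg
miR-485-3p: gUCAUACAcggcucuccucucu

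The target match of the miR-1283 seed is TTTGTAG, and an A directly after it makes the 8-base match. In GENCODE release 29 (GRCh38), taking the longest 3′ UTR per gene, 3285 of 18816 annotated genes (17.5%) held at least 1 copy of TTTGTAG on the sense strand, and 1466 (7.79%) held the 8-base form. Of the genes measured here 12535 had such a UTR, and 2604 of them (20.8%) carried 3540 copies, 1359 of them of 8 bases. A match is a stretch of letters and not a proven site.

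The mature mimic is not measured by these polyadenylated RNA counts, so its delivery rests on the labels. The line's identity genes were expressed in both groups. MYCN averaged 4740 CPM (counts per 1 M, scaled by effective library size) in miR-1283 cells and 5050 CPM in control cells. DBH, the enzyme that makes noradrenaline, averaged 1610 CPM in miR-1283 cells and 1660 CPM in control cells. The summed level of the markers of other cell types was 14.9 to 17.0 CPM in miR-1283 libraries and 16.9 to 18.9 CPM in control libraries, with PECAM1, COL1A2, KRT18, SOX10 and S100B at 0 in all 8. Library totals were 14.6 M to 20.16 M expected counts in miR-1283 cells and 13.04 M to 15.22 M in control cells. The share of counts from all mitochondrially encoded genes (symbols starting with MT-) was 7.87% to 9.11% in miR-1283 libraries and 8.85% to 9.88% in control libraries. The dependence of level on the GC share of the transcript (the GC slope, in log2 CPM per unit of GC share, relative to the mean of all 28 libraries) was -1.17 to 1.94 in miR-1283 libraries and -0.28 to 1.33 in control libraries, with replicate 4 the highest of each group.

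Pairwise distances show how near the groups lay. Over the 11542 genes with a mean level of at least 4 CPM, the SD of the log2 differences between 2 libraries was 0.17 to 0.33 for a miR-1283 library against a control library, with a median of 0.26. It was 0.19 to 0.37 between miR-1283 libraries (median 0.27) and 0.17 to 0.27 between control libraries (median 0.23). The distances between the groups thus fell within the range seen inside the miR-1283 group, apart from a lower end of 0.173 against 0.190. For comparison, the median distance to the control was 0.40 for miR-485-3p, 0.36 for miR-99b-5p, 0.36 for miR-380-3p and 0.31 for miR-100-3p. It was 0.24 for miR-1915-3p, below the 0.26 of miR-1283.

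Cells given the miR-1283 mimic had 3 messenger RNAs that differed from the control, and all 3 were lower. They were CLCN4, a chloride and proton exchanger of endosomes, PMP22, a membrane protein best known from peripheral myelin, and ASS1, the argininosuccinate synthase of arginine synthesis. None reached a 2-fold change. The 3 genes are 0.0199% of those tested by the quasi-likelihood test of edgeR at a Benjamini-Hochberg adjusted p under 0.05, and 0 genes were called higher (0%). An unadjusted p under 0.05 was obtained for 453 genes (3.01%), of which 291 (1.93%) were lower and 162 (1.08%) higher. That share is below the fraction of 0.05 at which unchanged genes would be expected to pass, so it is no excess in this fit. The share depended on the fit. It was above 0.05 with the GC slope as a covariate (804 of 15058 genes) and with the slope and the replicate block together (841 of 15058). It was also above 0.05 without miR-1283 replicate 4 (877 of 15194). In the other alternative fits against the control it stayed below 0.05, with 606 of 14315 genes for the 8 libraries alone. Limma-voom also called 0 genes higher, and DESeq2 called 1, CCNE2. The call itself is narrow, since a fit of the 8 libraries alone, in place of all 28, called 0 genes.

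CLCN4 (ENSG00000073464) had 10.5, 12.2, 9.01 and 8.39 CPM in miR-1283 replicates 1, 2, 3 and 4, against 16, 18.2, 14.8 and 16.8 CPM in control replicates 1, 2, 4 and 5. Every miR-1283 library lay below every control library. The log2 change was -0.71 ± 0.11 (SE; 95% interval -0.95 to -0.48; adjusted p = 0.0125), a fall to 0.61 of the control level. CLCN4 is the single called gene with a miR-1283 match, an 8-base one at chrX:10236765-10236771 (GRCh38, forward strand), base 3181 of a UTR of 4076 bases. The gene was also low under miR-99b-5p, with 11.8 ± 1.59 CPM (SD, n = 4; log2 change against the same controls -0.48, adjusted p = 0.00376), and high under miR-485-3p, with 22.7 ± 1.52 CPM (0.47, adjusted p = 0.00299). The other 3 mimics averaged 16.2 to 17.5 CPM. Without miR-1283 replicate 1, 3 or 4 or control replicate 2 or 5 the adjusted p was 0.0606, 0.0704, 0.151, 0.0669 and 0.0619.

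PMP22 (ENSG00000109099) had 18.6, 20.5, 19.2 and 17.3 CPM in miR-1283 replicates 1 to 4, against 24.6, 25.5, 26.0 and 25.4 CPM in control replicates 1, 2, 4 and 5. The groups did not overlap, and the 20 libraries of the other mimics also lay above the miR-1283 range, at 24.5 to 32.5 CPM. The log2 change was -0.43 ± 0.07 (95% interval -0.57 to -0.28; adjusted p = 0.0125), a fall to 0.744 of the control level. Against the mean of the other 5 mimics, a contrast that uses no control library, PMP22 was lower by -0.56 on the log2 scale (adjusted p = 6.93e-07) and CLCN4 by -0.72 (adjusted p = 3.0e-05). PMP22 holds no TTTGTAG in its longest 3′ UTR. It stayed called without miR-1283 replicate 2 (adjusted p = 0.0106) and without control replicate 1 (0.0371). Without any 1 of the other 6 libraries its adjusted p was 0.0544 to 0.151.

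ASS1 (ENSG00000130707) had 137, 125, 138 and 127 CPM in miR-1283 replicates 1 to 4, against 176, 169, 157 and 182 CPM in control replicates 1, 2, 4 and 5. Again no miR-1283 library reached a control library. The log2 change was -0.38 ± 0.06 (95% interval -0.51 to -0.25; adjusted p = 0.0159), a fall to 0.77 of the control level. ASS1 averaged 112 to 125 CPM under miR-100-3p, miR-99b-5p, miR-1915-3p and miR-380-3p, and 170 CPM under miR-485-3p, beside 132 CPM under miR-1283. Each of those values is set against the same 4 control libraries. Against the mean of the other 5 mimics the log2 difference of ASS1 was 0.05 ± 0.05 (adjusted p = 0.798). ASS1 has many processed pseudogenes, and how reads shared with them were counted is not given in the sources used here. The gene was called only without control replicate 4 (adjusted p = 0.0136) among the fits that left out 1 library, and otherwise had an adjusted p of 0.0544 to 0.273.

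**Figure D1:**
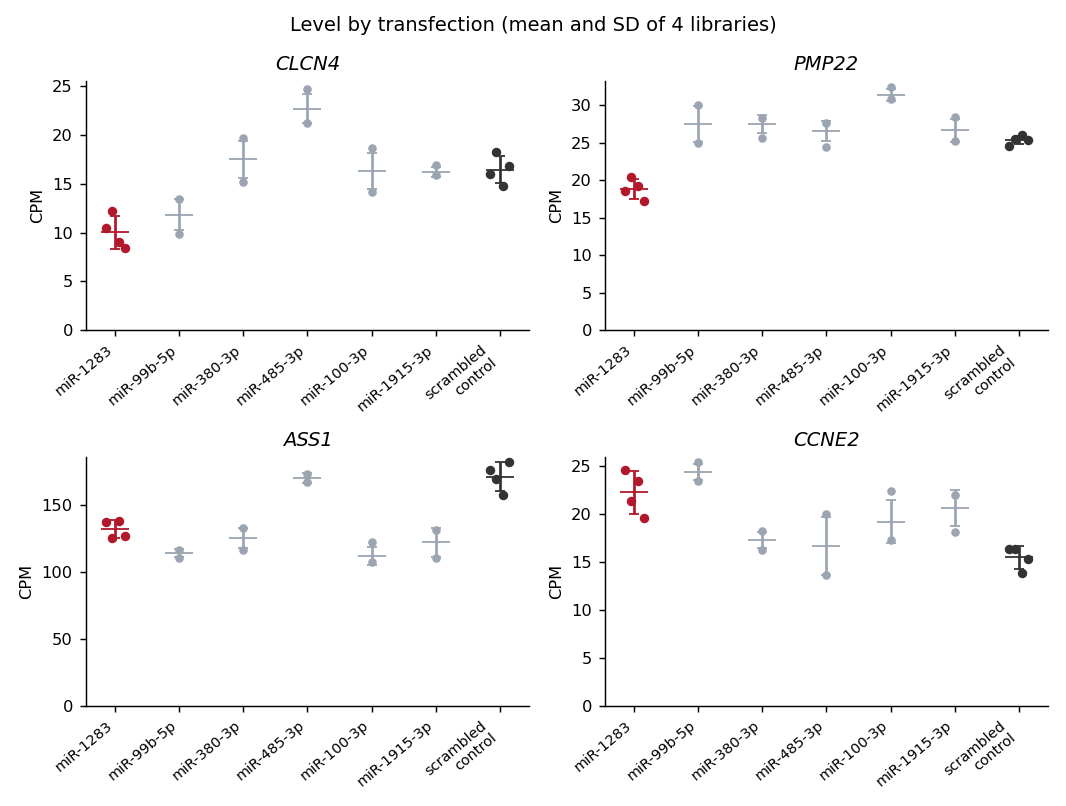
Level in CPM (linear axes from 0) of the 3 called genes and of CCNE2 in the 7 transfections, with bars for the mean and SD of 4 libraries. Red points are the 4 miR-1283 libraries and black points the 4 control libraries, while grey points show the lowest and highest library of each other mimic. PMP22 is below all other groups in miR-1283 cells at 17.3 to 20.5 CPM, whereas ASS1 at 125 to 138 CPM lies beside 4 of the other mimics.

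Among genes with a mean level of at least 4 CPM, the 6 next smallest p-values belonged to genes that were not called. CCNE2, cyclin E2, which drives entry into DNA synthesis, had 24.6, 21.4, 23.5 and 19.6 CPM in miR-1283 replicates 1 to 4, against 16.4, 16.4, 13.9 and 15.3 CPM in control replicates 1, 2, 4 and 5. The groups did not overlap, but the log2 change of 0.52 ± 0.11 had an adjusted p of 0.158. It was called higher with DESeq2 (adjusted p = 0.00454), with the GC slope as a covariate (0.0261), and with the slope and the replicate block together (0.034). CCNE2 averaged 24.4 CPM under miR-99b-5p and 16.7 to 20.6 CPM under the other 4 mimics, and its log2 difference from the mean of the other 5 mimics was 0.19 (adjusted p = 0.304).

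BCL11A, a zinc-finger transcriptional repressor, averaged 15.5 ± 0.79 CPM in miR-1283 cells and 19.8 ± 1.95 CPM in control cells (SD, n = 4 each; log2 change -0.35, adjusted p = 0.743). GATAD2B, a subunit of the NuRD chromatin remodelling complex, averaged 89.6 ± 1.77 CPM in miR-1283 cells and 106 ± 3.17 CPM in control cells (-0.24, adjusted p = 0.743). The other 3 genes leaned the other way with the same adjusted p of 0.743. RRM2, the small subunit of ribonucleotide reductase, averaged 474 CPM in miR-1283 cells and 398 CPM in control cells (log2 change 0.25). SGPL1, the lyase that breaks down sphingosine 1-phosphate, averaged 74.0 CPM in miR-1283 cells and 60.7 CPM in control cells (0.29), and was called higher with the replicate block and the GC slope together (adjusted p = 0.034). TRIB1, a pseudokinase, averaged 12.4 CPM in miR-1283 cells and 9.41 CPM in control cells (0.40). Against the mean of the other 5 mimics, log2 differences were -0.17 for BCL11A (adjusted p = 0.275) and -0.17 for GATAD2B (0.0546). They were -0.04 for RRM2 (0.904), 0.17 for SGPL1 (0.142) and -0.05 for TRIB1 (0.917). That mean joins unlike mimics. BCL11A averaged 28.9 CPM under miR-99b-5p and 13.6 to 17.9 CPM under the other mimics. GATAD2B averaged 85.8 CPM under miR-485-3p, 87.1 CPM under miR-99b-5p and 105 to 119 CPM under the rest. SGPL1 averaged 48.7 CPM under miR-485-3p, 52.4 CPM under miR-380-3p and 71.8 to 89.7 CPM under the rest. RRM2 averaged 378 to 630 CPM under the other 5 mimics. For BCL11A, GATAD2B, RRM2, SGPL1 and TRIB1 the miR-1283 and control libraries did not overlap. That was so for 247 genes lower under miR-1283 (1.64% of those tested) and 215 higher (1.43%).

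How large a change these libraries leave possible is given by the 95% interval of each gene's log2 change. These intervals hold for single genes and not for all genes at once, so about 1 in 20 can be expected to miss. The median interval reached 0.26 log2 units to either side of its estimate, or 1.2-fold. The whole interval lay within a 2-fold change for 13649 of the 15058 genes (90.6%), within 1.5-fold for 11351 (75.4%) and within 1.2-fold for 4586 (30.5%). Among the 11542 genes with a mean level of at least 4 CPM, 11441 (99.1%) were bounded within 2-fold and 10730 (93%) within 1.5-fold, and 11457 had a lower limit above a 2-fold fall. The bound widened as the level dropped. At 64 CPM and above 98.3% of 3493 genes were within 1.5-fold and 64.3% within 1.2-fold. From 1 to 4 CPM 81% of 2279 genes were within 2-fold and 27.1% within 1.5-fold, and below 1 CPM 29.3% of 1237 genes were within 2-fold and 0.243% within 1.5-fold.

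**Figure D2:**
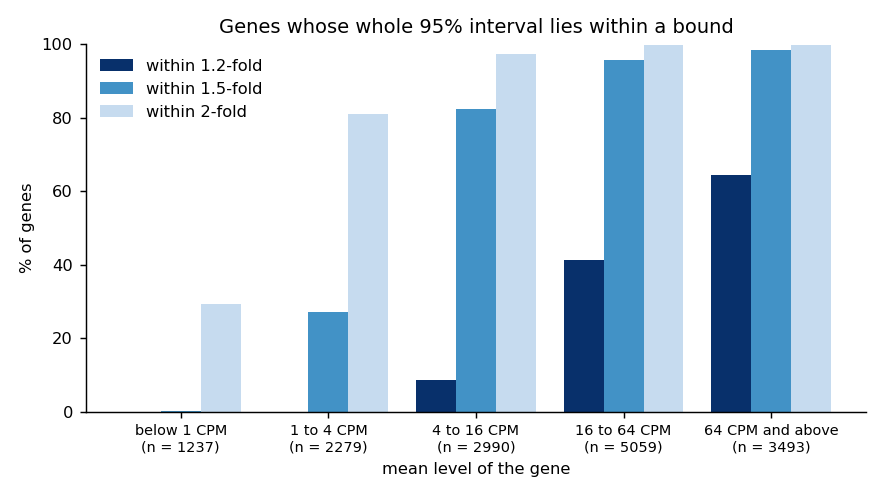
Percentage of genes (axis from 0 to 100) whose whole 95% interval for the miR-1283 over control change lies within 1.2-fold, 1.5-fold or 2-fold, in 5 classes of mean level in CPM, with the number of genes under each. The share within 1.5-fold is 98.3% at 64 CPM and above and 0.243% below 1 CPM.

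The point estimates were spread around 0, with a median of -0.01 over all genes. An estimate of 2-fold or more was found for 99 genes, of which 76 had a mean level below 1 CPM, and none of the 99 was called. The interval lay wholly beyond 1.5-fold for 2 genes, which are named because of these values. PYROXD2, named for an oxidoreductase domain, had 0.622, 1.07, 0.688 and 1.05 CPM in miR-1283 replicates 1 to 4, against 0.145, 0.152, 0.527 and 0.395 CPM in control replicates 1, 2, 4 and 5 (log2 change 1.48, 95% interval 0.61 to 2.39, adjusted p = 0.828). RP11-734K23.9, a transcript known by a clone name, had 1.43, 1.4, 9.08 and 1.65 CPM in miR-1283 replicates 1 to 4, against 19.1, 10.2, 17.9 and 7.63 CPM in control replicates 1, 2, 4 and 5 (-2.07, 95% interval -3.30 to -0.84, adjusted p = 0.951). Its groups overlapped through miR-1283 replicate 3.

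**Figure D3:**
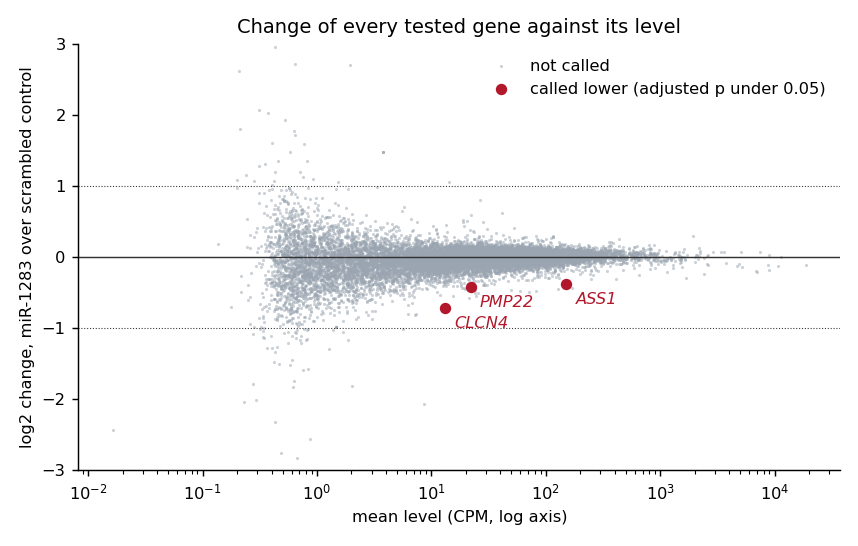
Log2 change, miR-1283 over scrambled control, against the mean level in CPM (log axis) for the tested genes, with 19 genes beyond 3 log2 units to either side not drawn. The 3 called genes, CLCN4, PMP22 and ASS1, are red and between -0.38 and -0.71, the dotted lines mark 2-fold, and the spread of the other genes narrows as the level rises.

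The same fit gives the scale of the other transfections, each set against the same 4 control libraries. It called 3176 genes (21.1%) under miR-485-3p, 2498 (16.6%) under miR-99b-5p, 1634 (10.9%) under miR-380-3p, 897 (5.96%) under miR-100-3p and 37 (0.246%) under miR-1915-3p. Against the mean of the other 5 mimics, miR-1283 cells had 253 called genes (1.68%), 100 lower (0.664%) and 153 higher (1.02%). The 153 higher genes had a median log2 difference of 0.37 from the other mimics and of 0.06 from the control, and 14 of them had an unadjusted p under 0.05 against the control. The 100 lower genes had medians of -0.38 against the other mimics and -0.15 against the control, with 22 at an unadjusted p under 0.05 against the control. Of the called genes with a 3′ UTR, 33 of 99 lower ones (33.3%) and 37 of 137 higher ones (27%) held a miR-1283 match, beside 20.8% of all.

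NRAS, a small GTPase of the MAPK pathway, shows what such a difference can be made of. It averaged 241 ± 24.0 CPM in miR-1283 cells and 51.0 ± 14.4 CPM in miR-485-3p cells, with 226 ± 14.4 CPM in control cells (SD, n = 4 each). It was higher in miR-1283 cells than in the mean of the other mimics (log2 difference 0.65, adjusted p = 8.83e-05) and had a log2 change of 0.09 against the control (95% interval -0.15 to 0.34, adjusted p = 1), although its UTR holds an 8-base match. CCND1, cyclin D1, averaged 233 ± 12.8 CPM in miR-1283 cells, 372 ± 17.9 CPM in miR-99b-5p cells and 265 ± 19.9 CPM in control cells. Its UTR holds 2 copies of the match. It was lower than in the mean of the other mimics (-0.28, adjusted p = 0.00107) and had a log2 change of -0.19 against the control (95% interval -0.31 to -0.06, adjusted p = 1).

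Genes with a miR-1283 match differed little in their median change from genes without one. The median log2 change was 0.01 for the 2604 genes with a match and -0.01 for the 9931 without, a difference of 0.0229. An unadjusted p under 0.05 in the lower direction was found for 1.57% of genes with a match and 1.95% of genes without, and in the higher direction for 1.15% with and 0.977% without. The 1176 genes with an 8-base match had a median of 0.0086, the 460 genes with 2 copies 0.014 and the 189 genes with 3 or more 0.0142, so more copies did not go with lower values. Of the 2604 genes, 2530 (97.2%) were bounded within 2-fold and 2355 (90.4%) within 1.5-fold, and 1148 of the 1176 genes with an 8-base match had a lower limit above a 2-fold fall. In the same fit, genes with a match to their own mimic were lower than the rest in median by -0.269 under miR-99b-5p, -0.191 under miR-485-3p, -0.0433 under miR-1915-3p, -0.039 under miR-380-3p and -0.0362 under miR-100-3p. The shares called lower with and without such a match were 40.5% and 8.87% under miR-99b-5p, and 28% and 8.21% under miR-485-3p. They were 14.6% and 4.13% under miR-380-3p, and 9.44% and 2.74% under miR-100-3p, beside small differences in median. They were 0.484% and 0.218% under miR-1915-3p, and 0.0384% (1 gene) and 0.0201% under miR-1283. These are descriptions without a test.

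Genes with a match also differed from the rest in composition. Their transcripts had a median GC of 43%, against 50.5% for genes without a match, and their 3′ UTRs a median length of 3222.5 bases, against 1133. The mean log2 level of genes with a match minus that of genes without, relative to the average of all libraries, was 0.0445, 0.0862, 0.018 and -0.136 in miR-1283 replicates 1 to 4. It was 0.0201, -0.0153, -0.0985 and -0.0115 in control replicates 1, 2, 4 and 5. The groups overlapped, and replicate 4 was the lowest of each group and the one with the highest GC slope. With the GC slope as a covariate the difference between medians was -0.0155, in place of 0.0229, so its sign turned with that setting. The values of the miR-1283 libraries above had an SD of 0.0969. That SD is a spread of single libraries, so it does not measure the error of the difference between medians.

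**Figure D4:**
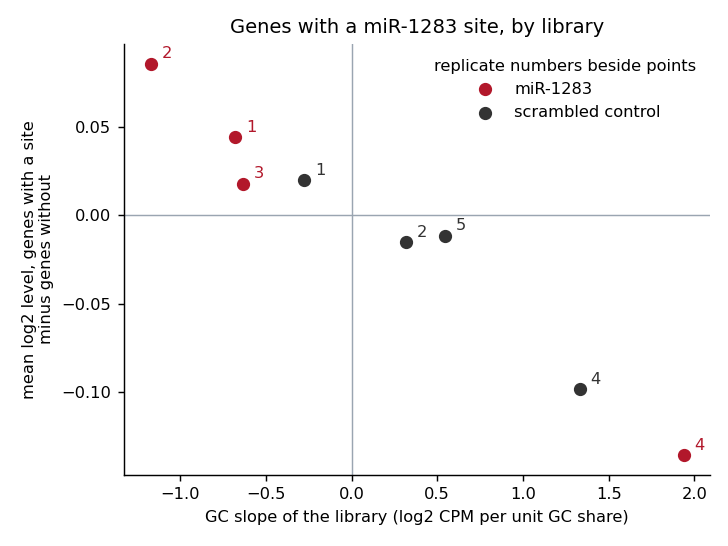
Mean log2 level of genes with a miR-1283 match minus genes without one (vertical axis) against the GC slope of the library (horizontal axis, log2 CPM per unit of GC share), for the 4 miR-1283 and 4 control libraries, numbered by replicate. The lowest point of each group is replicate 4, at -0.136 for miR-1283 and -0.0985 for the control, and both have the highest GC slopes of their group.

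A few matches are shown as examples, each with 11 bases to either side and TTTGTAG in capitals. They belong to CLCN4 (chrX:10236765-10236771, forward strand), the called gene; GATAD2B (chr1:153805856-153805862, reverse strand) and SGPL1 (chr10:70879771-70879777, forward strand), whose estimates had opposite signs; NRAS (chr1:114707427-114707433, reverse strand), described above; and 1 of the repeated copies of UVSSA (chr4:1390769-1390775, forward strand). All are read 5′ to 3′ on the transcript strand from GENCODE release 29 on GRCh38.
CLCN4: ggctttagacaTTTGTAGaactttctgga
GATAD2B: tggtccaggacTTTGTAGagtaaaaagaa
SGPL1: gacttaacactTTTGTAGgcttttcattg
NRAS: cctagaagtggTTTGTAGacttcctttat
UVSSA: ggtctgattggTTTGTAGtgttgtataga

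The genes with the most copies gave the following values. UVSSA, a factor of transcription-coupled DNA repair, holds 17 copies, many of them in a tandem repeat, and averaged 7.22 ± 0.81 CPM in miR-1283 cells and 8.09 ± 0.929 CPM in control cells (log2 change -0.16, 95% interval -0.41 to 0.08). The UTR annotated for C12orf45 is 22928 bases long and holds 10 copies, and the gene averaged 11.2 CPM in miR-1283 cells and 11.2 CPM in control cells (0.01, 95% interval -0.22 to 0.23). ARIH1, a ubiquitin ligase, holds 9 copies, 8 of them of 8 bases. It had 77.7, 81.4, 77.7 and 71.7 CPM in miR-1283 replicates 1 to 4, against 79.2, 81.5, 71.6 and 77.7 CPM in control replicates 1, 2, 4 and 5. Its log2 change was -0.01 with a 95% interval of -0.16 to 0.15, the lower end of which is 0.892 of the control level. ZNF326, a zinc-finger protein, holds 7 copies and averaged 80.7 CPM in miR-1283 cells and 77.9 CPM in control cells (0.05, 95% interval -0.12 to 0.22). All 4 genes had groups that overlapped and an adjusted p of 1.

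After CLCN4 and GATAD2B, the genes with a match and the smallest p among those with lower estimates were not called either. PPAP2B (now PLPP3), a phosphatase of lipid mediators with 2 copies, averaged 1.17 ± 0.301 CPM in miR-1283 cells and 2.19 ± 0.316 CPM in control cells (log2 change -0.91, adjusted p = 0.743). LAMP5, a lysosome-associated membrane protein of neurons, averaged 11.1 ± 0.601 CPM in miR-1283 cells and 14.4 ± 1.18 CPM in control cells (-0.38, adjusted p = 0.748). Both were lower than in the mean of the other mimics, with log2 differences of -0.78 (adjusted p = 0.028) and -0.31 (adjusted p = 0.0421). PPAP2B averaged 1.54 to 2.92 CPM under those mimics. LAMP5 was about as low under miR-100-3p, at 10.9 CPM (log2 change against the control -0.39, adjusted p = 0.0217), and under miR-1915-3p, at 11.7 CPM. It averaged 15.1 to 16.1 CPM under the rest. IFIT1, with 1 copy, comes next by p and is described with the interferon genes. SYNPO, the actin-binding synaptopodin, averaged 25.0 CPM in miR-1283 cells and 33.0 CPM in control cells (-0.40), and SLC6A17, a transporter of synaptic vesicles, 12.2 CPM in miR-1283 cells and 15.9 CPM in control cells (-0.38), each with an adjusted p of 1. Against the other mimics these 2 had log2 differences of -0.02 and 0.18 (adjusted p = 0.985 and 0.452).

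No member of 17 lists of processes that a transfected double-stranded RNA or the identity of the line could touch was called in either direction, beside 0.0199% of all genes, a share at which few or no calls would fall in lists of this size. In bulk RNA, fewer cells of a kind and less RNA per cell cannot be told apart. Of all genes tested, 6892 had estimates above 0 and 8165 below. Members of a list share the same control libraries and can vary together. The counts of signs given for the lists are therefore not counts of separate observations. Of the 17 measured interferon-induced antiviral genes, which cells switch on when they sense double-stranded RNA, 12 had estimates below 0 and 5 above, with a median of -0.10 beside -0.01 for all genes. IFIT1, which binds foreign RNA, averaged 0.808 ± 0.155 CPM in miR-1283 cells and 1.39 ± 0.152 CPM in control cells (log2 change -0.77, 95% interval -1.21 to -0.33). OAS1, a sensor of double-stranded RNA, averaged 2.19 ± 0.171 CPM in miR-1283 cells and 3.14 ± 0.235 CPM in control cells (-0.52). IFI6, an interferon-induced mitochondrial protein, averaged 1.14 ± 0.479 CPM in miR-1283 cells and 2.00 ± 0.337 CPM in control cells (-0.78). These 3 had the smallest p of their list, all with an adjusted p of 1. Against the mean of the other mimics their log2 differences were -0.16, -0.09 and -0.10 with adjusted p of 0.91, 0.911 and 0.959. For IFIT1 and OAS1 that mean joins unlike mimics. IFIT1 averaged 0.464 CPM under miR-100-3p, 0.516 CPM under miR-485-3p and 1.25 to 1.49 CPM under the other 3. OAS1 averaged 1.44 CPM under miR-100-3p, 1.40 CPM under miR-380-3p and 2.72 to 4.55 CPM under the other 3. IFI6 averaged 0.976 to 1.45 CPM under the 5 mimics. Levels this low leave wide intervals, and 8 of the 17 genes were bounded within 1.5-fold.

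Cell cycle lists were bounded more tightly. Of 32 measured mitosis genes, 29 had estimates above 0 with a median of 0.06, a highest value of 0.14, and all 32 intervals within 1.5-fold. Of 37 DNA replication genes, 21 had estimates above 0 and 16 below (median 0.01), and 34 were bounded within 1.5-fold. MCM5, part of the replicative helicase, averaged 319 CPM in miR-1283 cells and 365 CPM in control cells (log2 change -0.19, adjusted p = 1), opposite in sign to RRM2 and CCNE2. Of 29 targets of MYC and MYCN, 28 were bounded within 1.5-fold (median 0.03), and of 24 p53 targets 21 (median 0.05).

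Of 25 hypoxia and glycolysis genes, 20 had estimates above 0 with a median of 0.10, and all 25 were bounded within 1.5-fold. HK2, BNIP3L and LDHA had the smallest p of the list, each with an adjusted p of 1. HK2, the first enzyme of glycolysis, averaged 109 ± 10.0 CPM in miR-1283 cells and 90.8 ± 5.6 CPM in control cells (log2 change 0.26). BNIP3L, a mitophagy receptor, averaged 48.3 ± 5.19 CPM in miR-1283 cells and 40.4 ± 8.48 CPM in control cells (0.26). LDHA, lactate dehydrogenase A, averaged 631 ± 34.0 CPM in miR-1283 cells and 571 ± 47.3 CPM in control cells (0.14). Against the mean of the other mimics HK2, BNIP3L and LDHA had log2 differences of 0.12, 0.14 and 0.11 (adjusted p = 0.582, 0.595 and 0.432). HK2 averaged 74.1 to 144 CPM and BNIP3L 29.7 to 61.9 CPM under those mimics. All 13 mitochondrially encoded mRNAs had estimates below 0, with a median of -0.16 and a range from -0.29 to -0.08, and 9 were bounded within 1.5-fold. These 13 come from 1 genome and move together with the mitochondrial share of each library given above, so they are not separate observations. Cholesterol synthesis genes had 19 of 23 estimates above 0 (median 0.04), with 22 bounded within 1.5-fold.

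Genes of the line's identity were mostly bounded within 1.5-fold. Of 27 adrenergic identity genes, 18 had estimates below 0 (median -0.04) and 24 were bounded within 1.5-fold, and of 24 neuronal differentiation genes 22 were (median 0.01). Of 13 measured mesenchymal genes 10 were below 0 (median -0.13), and 8 were bounded within 1.5-fold. MYCN had 4540, 4090, 4840 and 5490 CPM in miR-1283 replicates 1 to 4, against 5120, 4790, 5020 and 5280 CPM in control replicates 1, 2, 4 and 5. Its groups overlapped, and its log2 change was -0.09 ± 0.08 (95% interval -0.26 to 0.08, adjusted p = 1). ALK, a receptor tyrosine kinase mutated in some neuroblastomas, averaged 71.7 ± 1.1 CPM in miR-1283 cells and 81.0 ± 9.80 CPM in control cells (-0.18, 95% interval -0.38 to 0.03).

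The 25 genes of microRNA processing and silencing had a median of 0.01 with 23 bounded within 1.5-fold, among them no called member of the machinery that a mimic loads. AGO2, the slicing Argonaute protein, averaged 24.0 ± 2.64 CPM in miR-1283 cells and 26.2 ± 7.67 CPM in control cells (log2 change -0.13, 95% interval -0.60 to 0.35). Stress genes of the unfolded protein and amino acid responses had a median of 0.01 over 28, with 25 bounded within 1.5-fold. ATF4, the central factor of the amino acid response, averaged 393 ± 30.2 CPM in miR-1283 cells and 391 ± 24.4 CPM in control cells (0.01, 95% interval -0.16 to 0.17). Of 15 genes of the BCL2 family 12 were bounded within 1.5-fold (median -0.0015). Immediate early genes, which vary with handling and growth factors, had a median of -0.08 over 17 with 8 bounded within 1.5-fold. Among them SPRY4, a feedback inhibitor of receptor tyrosine kinase signalling, averaged 19.8 ± 2.75 CPM in miR-1283 cells and 29.0 ± 4.43 CPM in control cells (log2 change -0.55, adjusted p = 0.743). SPRY4 passed the threshold as lower when the GC slope and the replicate block were both fitted (adjusted p = 0.034). Its log2 difference from the mean of the other mimics was -0.06 (adjusted p = 0.941). Of the 16 neuroblastoma background genes 14 were bounded within 1.5-fold (median -0.06), and of the 6 measured markers of other cell types 1 was (median -0.19).

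**Figure D5:**
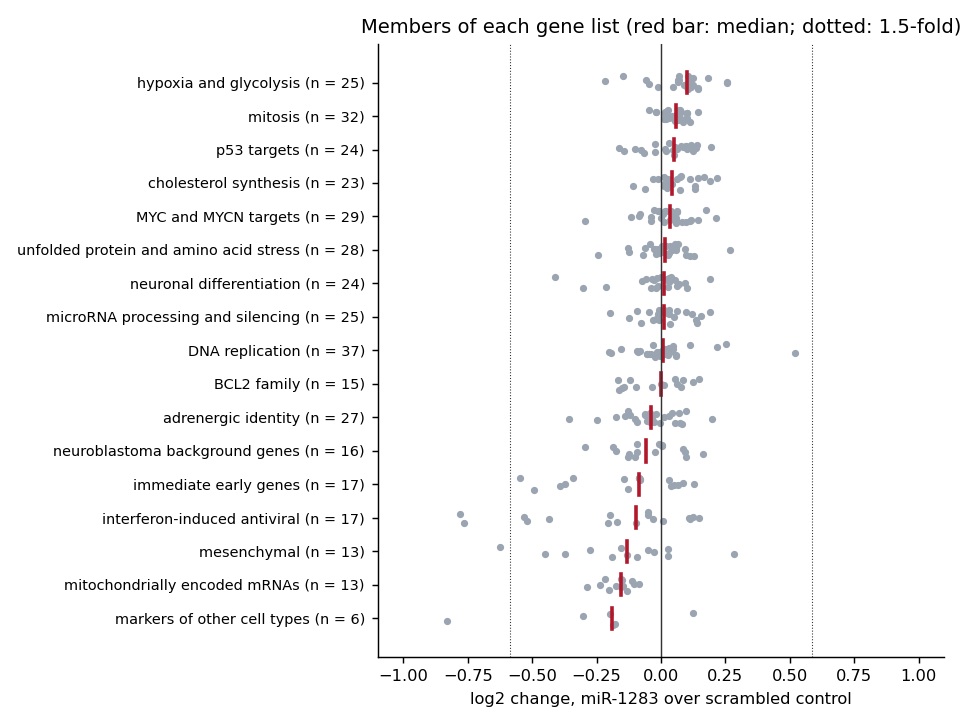
Log2 change, miR-1283 over scrambled control, of each measured member (grey points) of 17 gene lists with the list's median (red bar) and dotted lines at 1.5-fold, the number of members in parentheses. The medians run from 0.10 for hypoxia and glycolysis to -0.19 for markers of other cell types, and no member of any list was called.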

How the data were processed

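RNA of 28 Kelly libraries was prepared with a stranded mRNA kit, per the labels. The submitters' processing notes name STAR and hg19 without a version; the counting tool, its annotation, its use of strand and the meaning of the table's filtering are not given in the sources used here. The authors deposited 1 table of expected counts by gene (10.2% of its values are not whole) together with a length per gene that was not used. The members and gene lists were chosen with earlier results of these data known.

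Expected counts were rounded. Genes were kept with filterByExpr of edgeR 4.0.16 (R 4.3.3), scaled by TMM, and fitted with its quasi-likelihood model over all 28 libraries (21 residual degrees of freedom, coefficient of variation 12.2%). Tests were two-sided, with Benjamini-Hochberg adjustment over 15058 genes and a threshold of 0.05. Intervals are at 95% from the same fit, and 18 genes had none. The script was tested on simulated data. Library totals were 10.99 M to 23.3 M. No counting intervals were used, because variation between libraries limits the precision.

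Named genes were the called ones and the 8 lower genes with a match and the smallest p. The 6 other genes with the smallest p at a mean log2 CPM of at least 2 were added. Up to 3 members of each list, those with the smallest p, were also named. So were the neuroblastoma background genes, ATF4, AGO2, MYCN and the 6 genes with the most copies. Not all of the named genes are reported here. Matches came from 3′ UTRs of at least 50 bases in GENCODE 29 on GRCh38, which differs from the files' hg19, so all coordinates are GRCh38. Mature microRNAs came from RefSeq GRCh38.p14.

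Replicate numbers 1, 2 and 4 occur in both groups, and the deviations of same-numbered libraries from their group means correlated at 0.408, 0.17 and 0.547. Differently numbered libraries of the groups correlated at -0.591 to 0.361. What a number shares is not stated. The main fit did not pair libraries, and the replicate number entered as a block only in alternative fits. With the replicate block 3 genes were called, the same 3. Alternatives were DESeq2 1.42.0, limma-voom (limma 3.58.1), other scalings and filters, covariates, the 8 libraries alone, the other 5 mimics as the reference, and leaving out libraries.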

Additional observations from a re-analysis of the deposited data

Results flagged for a closer look

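In 4 of the 84 sets of 4 libraries examined, 1 library stood apart from the other 3 by Dixon's ratio at its 95% critical value. Chance gives about 1 in 20. The sets were taken within miR-1283 or control cells. They held levels of named genes, library totals, scaling factors, GC slopes, mitochondrial shares and the differences between genes with and without a match. The 4 flagged sets were all gene levels. NRAS was low in miR-1283 replicate 4, at 205 CPM against 252 to 256 CPM in the other miR-1283 libraries. AGO2 was high in control replicate 5, at 37.5 CPM, and so was BCL11A, at 22.7 CPM. C12orf45 was low in control replicate 1, at 9.92 CPM.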

How the results depend on the processing

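The count of 3 called genes was 5 with DESeq2, 1 with no filter on low counts, 8 with the replicate block and the GC slope together (4 higher and 4 lower), 0 with only the 8 libraries, and 0 without replicate 4 of both groups, a setting chosen after seeing the data; it was 0 to 2 when 1 library was left out. It stayed within 1.5 times of 3 under the other scalings (2 or 3), limma-voom (3), the stricter filter (3), the library code (3), the GC slope (4) and the replicate block alone (3). Of 21 alternatives against the control, CLCN4 was called in 14, PMP22 in 12, ASS1 in 10 and CCNE2 in 3, each with 1 sign in all 21. The log2 change ran from -0.82 to -0.61 for CLCN4, from -0.47 to -0.35 for PMP22, and from -0.41 to -0.33 for ASS1, which turned to 0.0531 with the other 5 mimics as the reference. With the 8 libraries alone all 3 had an adjusted p of 0.237. The share of genes bounded within 2-fold was 46.2% with no filter, which adds genes with few counts, and 86.9% to 88.7% when 1 library was left out. Scaling moved the median of all genes by at most 0.0168. The difference between genes with and without a match ran from -0.0155 to 0.0581, and its sign turned with the GC slope, with the block and GC slope together (-0.00784), without miR-1283 replicate 2 (-0.00247) and without control replicate 4 (-0.00495); the cause was not tested. Intervals widened as the level dropped, and no setting varied depth.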
